A study of Mus musculus with 5 samples.

Results

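The ANP32E regions of mouse heart under pressure load were set against the H2A.Z regions they overlap. Of 8444 ANP32E regions in the series, 7840 (92.8%) overlapped an H2A.Z region by 1 bp or more, and these 7840 pairs are described here. Each ANP32E region was paired with the H2A.Z region it overlapped most, out of 31098 in all, which brought in 7188 H2A.Z regions. Both signals were ranked over the pairs from 0 to 100, and the rank of ANP32E minus the rank of H2A.Z, in percentile points, said whether ANP32E was high or low for the H2A.Z level at a locus. The 10% of pairs with the highest and the 10% with the lowest rank difference, 784 each, are called ANP32E-high and ANP32E-low.

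Chromatin immunoprecipitation and sequencing had been done on whole hearts of male C57BL/6 mice aged 12 weeks. The TAC hearts came from mice 4 days after transaortic coarctation, a surgical narrowing of the aorta that loads the heart with pressure, and were set beside hearts of sham mice. Each antibody gave 1 library per condition, so the ANP32E and H2A.Z libraries of TAC hearts carry the results, the sham libraries stand beside them, and no difference has a replicate check. The labels do not say how many hearts made up a library, and a whole heart mixes muscle, vessel, matrix and blood cells.

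H2A.Z replaces histone H2A in nucleosomes next to gene starts and at enhancers, where it accompanies open chromatin and genes ready to be transcribed. The SRCAP and TIP60 complexes put it in, whereas the chaperone ANP32E takes it out: ANP32E binds H2A.Z through a dedicated domain and strips the variant from nucleosomes. Members of the ANP32 family also inhibit the protein phosphatase PP2A. In the heart, H2A.Z has been studied in hypertrophy, the enlargement of muscle cells under load.

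The RefSeq promoters (build GRCm38.p6, which is mm10) of the 3 highest and 3 lowest named promoter genes with an eligible entry are shown because they carry the extremes of the comparison. Each run covers the 250 bp before and 50 bp after a gene start, 5′ to 3′ on the gene's strand, and capitals mark matches on either strand to 10 motifs, each spelled out after the sequences.
Klf2, chr8:72318812-72319111, plus strand: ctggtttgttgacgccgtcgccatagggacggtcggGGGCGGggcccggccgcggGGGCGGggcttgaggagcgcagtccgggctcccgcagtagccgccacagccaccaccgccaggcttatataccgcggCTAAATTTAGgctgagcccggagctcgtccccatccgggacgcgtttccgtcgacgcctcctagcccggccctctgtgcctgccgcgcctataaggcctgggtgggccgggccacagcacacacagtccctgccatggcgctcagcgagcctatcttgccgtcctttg
Oaz1, chr10:80826406-80826705, plus strand: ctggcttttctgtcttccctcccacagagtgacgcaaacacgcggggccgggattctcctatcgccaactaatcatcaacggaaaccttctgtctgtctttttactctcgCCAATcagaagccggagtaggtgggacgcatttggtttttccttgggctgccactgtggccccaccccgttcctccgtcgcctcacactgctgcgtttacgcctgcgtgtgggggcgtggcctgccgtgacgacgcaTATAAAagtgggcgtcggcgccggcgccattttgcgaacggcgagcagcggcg
Eif1, chr11:100319699-100319998, plus strand: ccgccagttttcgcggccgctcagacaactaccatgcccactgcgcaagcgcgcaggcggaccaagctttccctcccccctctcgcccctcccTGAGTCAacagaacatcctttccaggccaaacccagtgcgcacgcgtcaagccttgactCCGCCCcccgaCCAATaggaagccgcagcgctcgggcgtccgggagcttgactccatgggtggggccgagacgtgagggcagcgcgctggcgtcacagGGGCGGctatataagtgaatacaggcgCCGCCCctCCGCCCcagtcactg
Yy1, chr12:108793047-108793346, plus strand: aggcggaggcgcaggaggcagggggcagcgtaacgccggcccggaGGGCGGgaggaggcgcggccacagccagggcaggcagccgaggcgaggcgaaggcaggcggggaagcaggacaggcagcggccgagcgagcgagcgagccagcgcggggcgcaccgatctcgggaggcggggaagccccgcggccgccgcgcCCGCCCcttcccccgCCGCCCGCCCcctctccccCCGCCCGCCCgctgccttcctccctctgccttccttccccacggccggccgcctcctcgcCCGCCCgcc
Tmem126a, chr7:90457154-90457453, minus strand: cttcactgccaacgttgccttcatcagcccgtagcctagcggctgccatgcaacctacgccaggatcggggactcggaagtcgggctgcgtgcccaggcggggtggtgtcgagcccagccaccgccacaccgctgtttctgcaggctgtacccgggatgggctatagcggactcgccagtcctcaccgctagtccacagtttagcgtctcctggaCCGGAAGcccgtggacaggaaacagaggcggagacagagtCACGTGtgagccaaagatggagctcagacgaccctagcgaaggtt
Trpm7, chr2:126876212-126876511, minus strand: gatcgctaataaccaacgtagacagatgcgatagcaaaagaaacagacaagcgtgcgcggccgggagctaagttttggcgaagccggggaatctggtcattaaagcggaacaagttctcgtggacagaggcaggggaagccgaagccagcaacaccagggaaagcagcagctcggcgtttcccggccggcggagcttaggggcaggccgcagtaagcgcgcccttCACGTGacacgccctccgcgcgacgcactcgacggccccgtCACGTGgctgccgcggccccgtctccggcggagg

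Klf2, Oaz1 and Eif1 were ANP32E-high, and Yy1, Tmem126a and Trpm7 were ANP32E-low. The Klf2 window held 2 SP/KLF boxes (GGGCGG) and 1 MEF2 site (CTA and TAG with any 4 bases between), and its GC content was 69.3%. The Oaz1 window held 1 NF-Y box (CCAAT) and 1 TATA box (TATAAA), and the Eif1 window held 4 SP/KLF boxes, 1 NF-Y box and 1 AP-1 site (TGANTCA). The Yy1 window was the richest in GC, at 81.0%, with 7 SP/KLF boxes. Tmem126a held 1 ETS site (CCGGAAG) and 1 E-box (CACGTG), and Trpm7 held 2 E-boxes. The remaining motifs, NRF1 core (GCATGC), CRE (TGACGTCA) and YY1 (AAGATGGC), had no match in these 6 windows.

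Loci with more H2A.Z tended to have more ANP32E, with a wide spread around that relation. The average signal of ANP32E ranged from 1 to 15.5 with a median of 7.60, and that of H2A.Z from 4.69 to 85.9 with a median of 27.6. Both are in the deposited units, and the depth behind them is unknown. In a whole organ, fewer cells of a type and less protein on the chromatin of each cell cannot be told apart. The Spearman coefficient across the 7840 pairs was 0.588 in TAC hearts and 0.368 in sham hearts. These coefficients describe pairs that share the same libraries. In the 10% of pairs with the weakest H2A.Z, median ANP32E was 4.10 in TAC hearts and 7.5 in sham hearts. In the 10% with the strongest H2A.Z it was 9.24 in TAC hearts and 9.68 in sham hearts. The regions merge the intervals of both conditions, and an ANP32E interval was called at 52.7% of the pairs in TAC hearts and 82.6% in sham hearts. Weakly marked pairs could thus be listed through a sham interval, and how the libraries were scaled to each other is unknown, so no difference between the conditions is read from these medians. In pairs called in TAC in both tables the TAC coefficient was 0.350. The rank differences of the same pairs in TAC and sham hearts had a coefficient of 0.315.

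**Figure D1:**
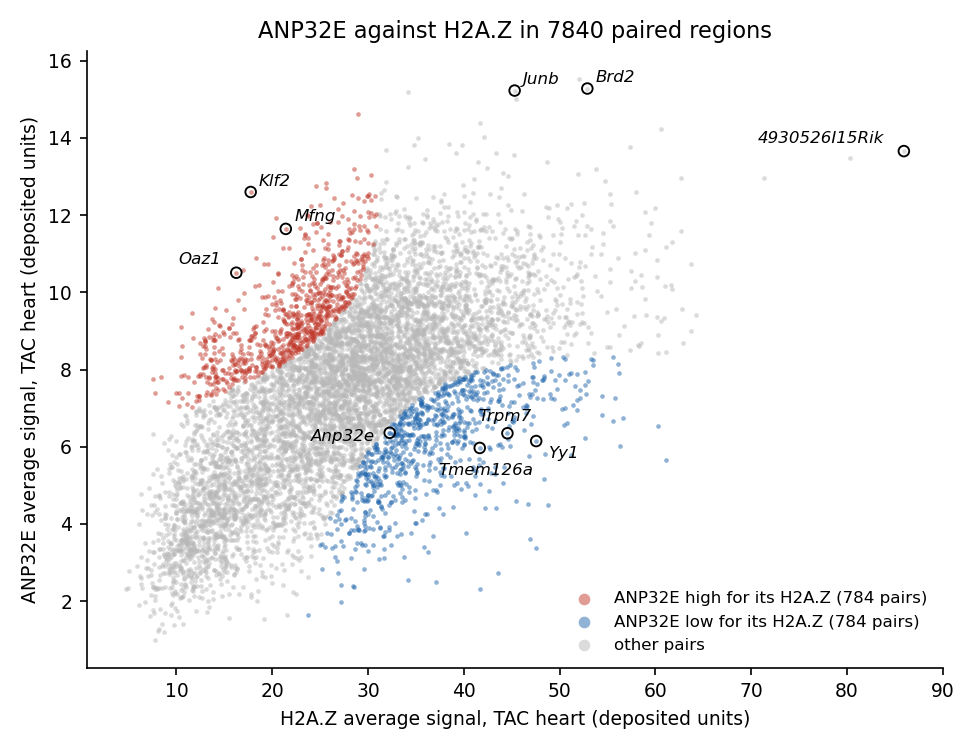
ANP32E average signal (y axis, deposited units) against H2A.Z average signal (x axis, deposited units) in TAC heart, 1 point per pair. Red points are the 784 ANP32E-high pairs, blue points the 784 ANP32E-low pairs and grey points the rest; circles mark named genes, with Klf2 at 12.6 for ANP32E and 17.8 for H2A.Z and Yy1 at 6.15 and 47.6.

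**Figure D2:**
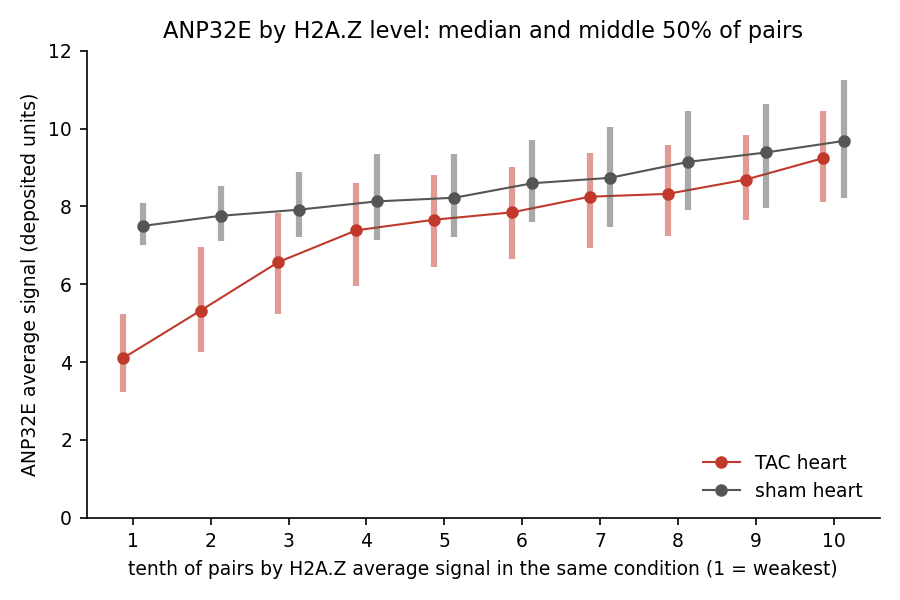
Median ANP32E average signal (points) and the middle 50% of pairs (bars) in 10 equal groups of pairs ordered by H2A.Z of the same condition, in TAC (red) and sham (grey) heart. The TAC medians run between 4.10 and 9.24 and the sham medians between 7.5 and 9.68.

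Within the pairs, ANP32E-high regions had a median ANP32E of 9.20 over a median H2A.Z of 22.6, and ANP32E-low regions had 6.20 over 36.0. A rank difference of 50 points or more was reached by 236 pairs (3.01% of all), and one of -50 points or less by 295 pairs (3.76%). An interval was called for ANP32E in the TAC library at 91.6% of ANP32E-high and 25% of ANP32E-low regions, against 52.7% of all pairs. In the sham library it was called at 54.6% of ANP32E-high and 95.3% of ANP32E-low regions. The deposited regions merge the intervals of both conditions, so a region could be listed without a TAC interval of its own.

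The promoter with the most ANP32E for its H2A.Z was that of Klf2, a zinc finger transcription factor that blood flow induces in endothelium (chr8:72318355-72319862). It had 12.6 for ANP32E and 17.8 for H2A.Z in TAC hearts, ranks of 99.4 and 18.6, and 14.5 and 19.8 in sham hearts. A second ANP32E region of the same gene, 182 bp further on, had 8.86 over the same H2A.Z region and a rank difference of 55.0, so both regions at Klf2 were ANP32E-high. Oaz1, the antizyme that destroys ornithine decarboxylase (chr10:80825850-80827653), had 10.5 for ANP32E and 16.2 for H2A.Z, and a rank difference of 76.9. Eif1, the initiation factor that guards start codon choice (chr11:100318856-100321210), had 11.9 and 20.4, a difference of 73.8. These 3 promoters were also ANP32E-high in sham hearts, with rank differences of 77.8, 62.4 and 72.5.

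Ptrf, the coat protein of caveolae (chr11:100967111-100971493), had a rank difference of 73.0, with 11.4 for ANP32E and 20.03 for H2A.Z. Next came Sec14l1, a Sec14-like protein (72.0), Ifnar2, a chain of the interferon alpha and beta receptor (70.5), and Mfng, a fringe glycosyltransferase that modifies Notch receptors (70.0). Shank3, a scaffold protein of synapses (69.5), Cdc42ep2, an effector of the GTPase Cdc42 (69.0), and Ctdsp2, a small phosphatase of the RNA polymerase II tail (66.7), completed the 10. Their average H2A.Z signals lay between 16.2 and 21.4, below the 27.6 of all pairs, and their average ANP32E signals between 9.56 and 12.6, above 7.60. At Mfng, ANP32E was 11.6 in TAC hearts and 5.55 in sham hearts, H2A.Z was 21.4 in TAC hearts and 22.1 in sham hearts, and the sham rank difference was -23.2, the only one of the 10 below 0. No ANP32E interval was called in the sham library at Mfng or Ifnar2. Mfng and Cdc42ep2 lacked a CpG island, and the other 8 had one. By the peak signal, the tallest point of a region, Ifnar2 (15.7), Oaz1 (26.9) and Sec14l1 (29.6) were no longer among the highest 10%, and Shank3 stood at 86.0. The H2A.Z peak at Sec14l1 (116), Ifnar2 (109) and Ptrf (106) was above the median peak of all pairs, 98. It was below 98 at the rest of the 10.

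At the opposite end, the promoter of Yy1, a zinc finger transcription factor that activates and represses genes (chr12:108791462-108793201), had 6.15 for ANP32E and 47.6 for H2A.Z in TAC hearts, ranks of 29.1 and 97.0, and 8.53 and 48.5 in sham hearts. A second ANP32E region inside Yy1 had 3.38 and the lowest rank difference of all pairs, -92.1, and no interval was called there in the TAC library. The shared promoter of Rev3l, the catalytic subunit of DNA polymerase zeta, and the numbered locus E130307A14Rik (chr10:39732385-39734387) had 5.69 and 41.5, a difference of -67.2. Its neighbouring ANP32E region, 164 bp away, stood at -69.1. Tmem126a, a mitochondrial membrane protein (chr7:90455862-90457994), had 5.97 and 41.7 (-64.5), and Trpm7, a cation channel fused to a kinase (chr2:126875376-126877296), had 6.35 and 44.6 (-62.9).

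Ss18, a subunit of the BAF remodelling complex (-61.1), Qser1 (-61.1), the shared promoter of Ttc19, an assembly factor of respiratory complex III, and Zswim7 (-59.5), Lix1l (-59.0), Fam63b (-58.6) and Pura, a single-stranded nucleic acid binding protein (-58.4), followed. All 10 lay over a CpG island, their H2A.Z ranged between 36.9 and 54.4, and their ANP32E between 5.44 and 6.83. The 10 lowest and the 10 highest promoters were chosen by the ranks of these 2 signals, so their separation in both follows from the choice. All 10 were also below 0 in sham hearts, with Trpm7 closest to 0 at -2.40; its ANP32E was 6.35 in TAC hearts and 11.3 in sham hearts. By the peak signal all 10 stayed below 0, but Rev3l (-10.9), Yy1 (-14.8), Pura (-15.9) and Qser1 (-22.9) were no longer among the lowest 10%, and Fam63b was lowest at -69.5. Their H2A.Z regions were 3126 to 12096 bp long, against 3391 to 18823 bp for the 10 highest.

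**Figure D3:**
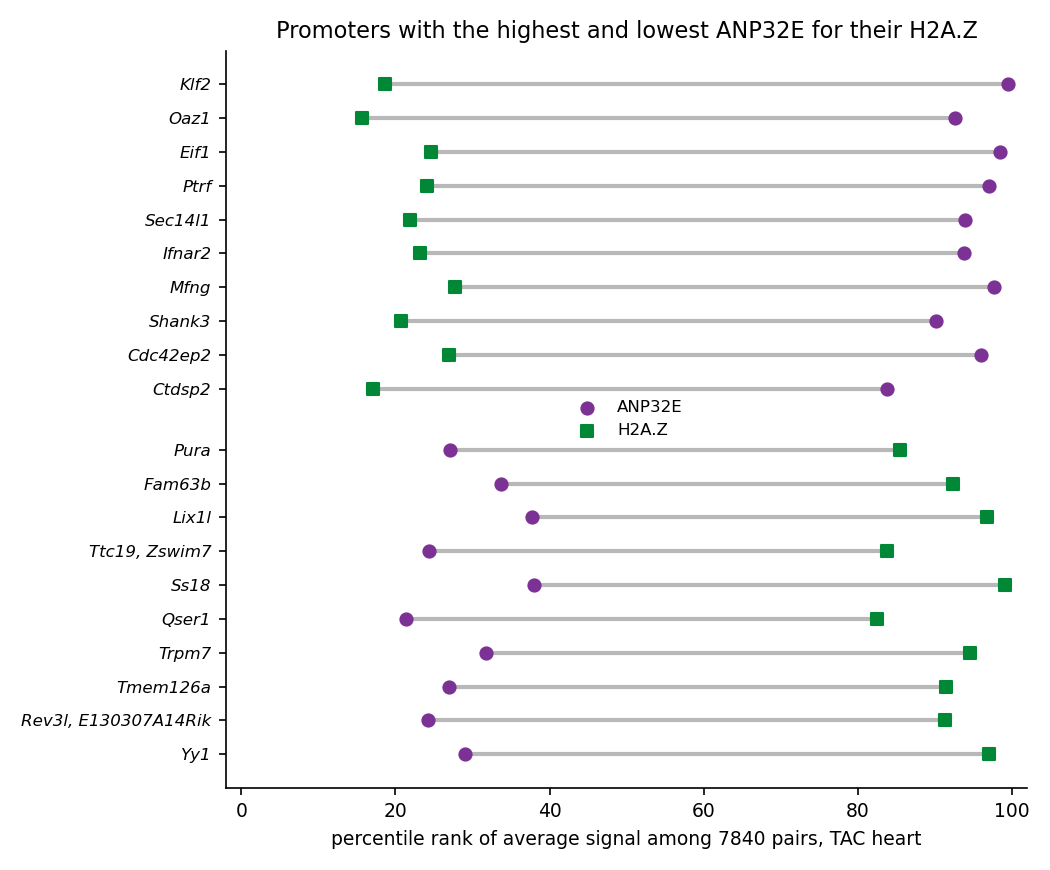
Percentile ranks of ANP32E (purple circles) and H2A.Z (green squares) average signal among 7840 pairs in TAC heart (x axis), for the 10 highest and the 10 lowest promoters called in TAC in both tables (y axis, gene names). The ANP32E circle lies right of the H2A.Z square in the upper 10 rows, with Klf2 at 99.4 and 18.6, and left of it in the lower 10 rows, with Yy1 at 29.1 and 97.0.

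The 4 strongest ANP32E promoters were not ANP32E-high. H2A.Z was above its median at all 4, with ranks of 74.8 or more. The rank difference could therefore not reach the ANP32E-high threshold of 34.4 points. Brd2, a BET protein that reads acetylated histones, had 15.3 for ANP32E over 52.9 for H2A.Z and stood at 1.10 points. Junb, an AP-1 transcription factor, had 15.2 over 45.3 (4.71), and Ptma, prothymosin alpha, 15 over 45.5 (4.52). Zfp36l2, which destabilises AU-rich messenger RNAs, had 15.2 over 34.2 and reached 25.2. Among the strongest H2A.Z promoters, 4930526I15Rik (85.9), the shared promoter of Ndufa13 and Tssk6 (80.4) and that of Enoph1 and Hnrpdl (71.3) also ranked near the top for ANP32E, with 13.66, 13.47 and 12.96 and rank differences between -0.38 and -0.19. The shared promoter of 4930426I24Rik and the testis chaperone gene Hspa2, with 64.2 for H2A.Z, had 9.41 for ANP32E and stood at -18.1.

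A second measure set ANP32E against pairs of like H2A.Z: the pairs were cut into 20 groups by H2A.Z, and the percentile of ANP32E was taken within each group. By construction the rank difference takes its high end from loci with weak H2A.Z and its low end from loci with strong H2A.Z, and the second measure does not. Of the ANP32E-high pairs by rank difference, 58.2% were also in the highest 10% at like H2A.Z, and of the ANP32E-low pairs 52.7% were also in the lowest 10%. Brd2, Junb, Zfp36l2 and Ptma were all in the highest 10% at like H2A.Z, at percentiles of 99.7, 99.5, 100 and 99.2. So were 4930526I15Rik (98.5), the promoter of Ndufa13 and Tssk6 (98.0) and that of Enoph1 and Hnrpdl (96.7). The promoter of 4930426I24Rik and Hspa2 stood at 48.2.

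Promoters, meaning ANP32E regions with a gene start inside or within 1000 bp, made up 4891 of the 7840 pairs (62.4%), regions elsewhere in gene bodies 1383 (17.6%) and regions outside genes 1566 (19.97%). By rank difference, promoters made up 55.9% (95% exact binomial interval 52.3 to 59.4%) of ANP32E-high and 81.1% (78.2 to 83.8%) of ANP32E-low pairs. Gene bodies made up 27.3% (24.2 to 30.6%) and 8.16% (6.34 to 10.3%). A CpG island lay under 56.5% (53.0 to 60.0%) of ANP32E-high and 78.1% (75 to 80.9%) of ANP32E-low regions, against 60.3% of all. These intervals cover counting error over regions only. At like H2A.Z the order was the opposite: promoters were then 70.8% (67.6 to 74.0%) of the highest 10% and 52.0% (48.5 to 55.5%) of the lowest 10%, and CpG islands 72.8% and 42.8%. Regions outside genes then made up 8.89% of the highest and 31.3% of the lowest 10%. At like H2A.Z an ANP32E interval was called in the TAC library at 91.7% of the highest and 5% of the lowest 10%. Median ANP32E region lengths were 2034 and 1360.5 bp. The contrast at like H2A.Z thus sets mostly called regions against regions mostly listed without a TAC interval.

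Promoters carried more of both proteins. Promoter pairs had a median ANP32E of 8.25 over 31.2 for H2A.Z, gene-body pairs 6.00 over 17.1, and pairs outside genes 5.73 over 20.2. In the 25% of pairs with the weakest H2A.Z, median ANP32E was 6.18 over 18.2 for H2A.Z at promoters, 5.12 over 14.1 in gene bodies and 4.54 over 14.9 outside genes. In the 25% with the strongest H2A.Z it was 8.94 over 39.4 at promoters, 8.17 over 37.7 in gene bodies and 8.61 over 38.5 outside genes. Median H2A.Z was thus also highest at promoters within each range. Gene-body pairs without a CpG island had a median rank difference of 5.63 points, and those with one of 0.73. In sham hearts the gene-body pairs without an island stood at 19.5.

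**Figure D4:**
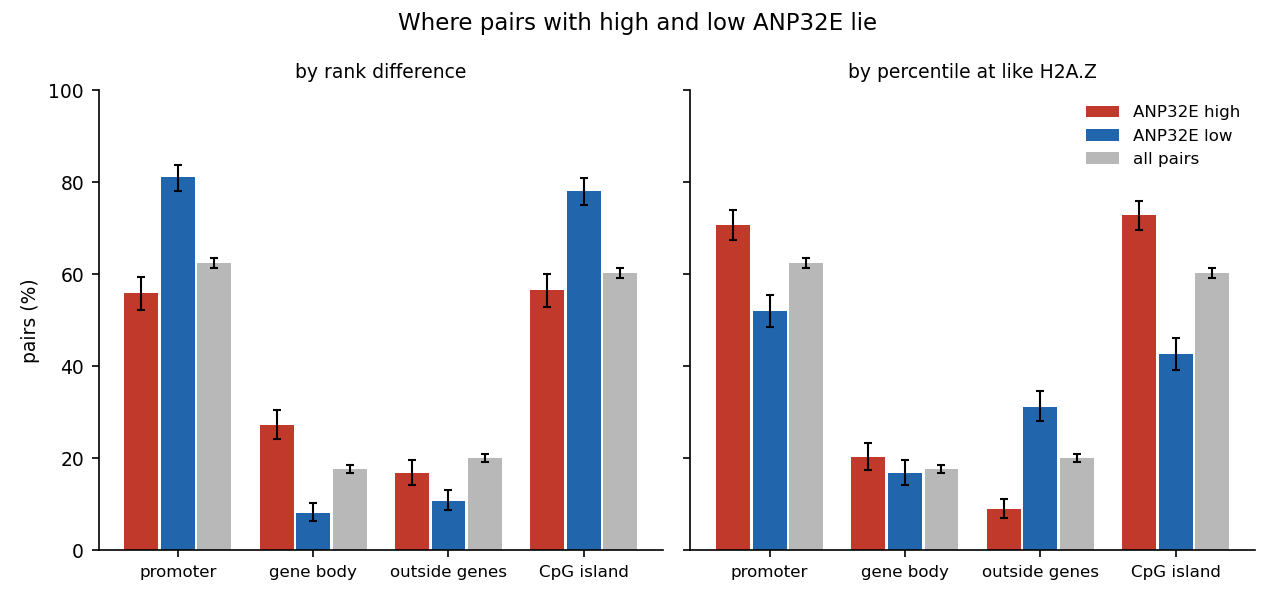
Share of pairs (y axis, %) at promoters, in gene bodies, outside genes and over a CpG island, for ANP32E-high (red), ANP32E-low (blue) and all pairs (grey), with ends taken by rank difference (left) or by the percentile of ANP32E at like H2A.Z (right). Bars are shares and lines their 95% exact binomial intervals; the promoter share is 55.9% and 81.1% on the left but 70.8% and 52.0% on the right.

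Among gene-body regions called in TAC in both tables, the highest rank difference lay in Msi2, an RNA-binding protein of the Musashi family (chr11:88489257-88490625), with 10.1 for ANP32E over 14.3 for H2A.Z (78.3). Regions in Arhgap29, a GTPase-activating protein (76.1), Sorbs3, the focal adhesion adaptor vinexin (74.9), and Col4a2, a collagen chain of basement membranes (73.7), followed. In sham hearts these 4 stood at 5.40, 40.1, 47.1 and 1.64 points. Of the 4, only Sorbs3 had an ANP32E interval called in the sham library. The lowest were in Eif4e, the cap-binding initiation factor, with the microRNA gene Mir1956 listed beside it (-50.4), Phf17, a PHD finger protein (-47.7), Kdm4c, a histone demethylase (-45.1), and Jarid2, a component of the Polycomb repressive complex 2 (-40.6). All 4 lay over CpG islands, whereas of the highest 4 only Sorbs3 did. At like H2A.Z none of the lowest 4 was in the lowest 10%, with percentiles between 13.8 and 16.4. The highest 4 were all in the highest 10% by that measure. ANP32E at Kdm4c was 7.74, above the median of all pairs, 7.60. In sham hearts the lowest 4 stood at -89.97, -49.5, -29.9 and -60.7 points. The peak signal placed Kdm4c on the positive side, at 14.9, and Jarid2 at -8.97, no longer among the lowest 10%.

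Outside genes, the highest pair was at chr19:5822923-5824313, with 9.46 for ANP32E over 11.6 for H2A.Z (77.3). In the RefSeq annotation it lies 395 bp from Neat1, the long noncoding RNA of paraspeckles. The second was at chr2:116974870-116976645, with 11.1 over 21.8 (67.4), where the nearest RefSeq gene without a predicted name was 62079 bp away. The lowest were a region near the RNA helicase gene Dhx37 on chromosome 5 (-52.5) and one at chr3:51339356-51340161 (-52.4), which RefSeq places inside Elf2, an ETS transcription factor gene.

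Some H2A.Z regions held several ANP32E regions, and ANP32E varied along such a stretch. There were 592 such H2A.Z regions with 1244 pairs, and the rank differences inside one spanned a median of 22.9 points. Of the 592, 3 held both an ANP32E-high and an ANP32E-low pair. At Nr4a1, an immediate early nuclear receptor, the H2A.Z region of 19295 bp held 3 ANP32E regions, all ANP32E-high, at 36.1 to 56.7 points. At Nfkbia, the inhibitor of NF-kappaB, 3 regions ranged between -20.3 and 59.3, and at Hes1, a target of Notch, 4 regions ranged between -25.9 and 49.1. Cd36, the fatty acid transporter, had the most, 6 ANP32E regions with signals of 2.00 to 4.10 over an H2A.Z of 13.3, and all 6 stood between -8.29 and 0.43. These 4 genes were picked after their values were seen. A further ANP32E region in the same H2A.Z region did not always share the end of a named extreme. At the high end it stood at 42.6 at Ptrf, 71.3 at Ctdsp2, 11.6 at Cdc42ep2 and 12.3 beside the chromosome 2 pair. At the low end it stood at -32.8 at Lix1l, -26.6 at Eif4e, -5.91 at Jarid2 and -5.13 at Dhx37. Beside the pair inside Elf2 the values were -46.3 and -21.1. Those at Klf2, Yy1 and Rev3l are given above.

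Read by gene, 5724 genes had a promoter in a pair, with a median rank difference of -2.50, and 495 of them (8.65%) were ANP32E-high and 736 (12.9%) ANP32E-low. At like H2A.Z, 11.9% were in the highest 10% and 7.91% in the lowest 10%, and the median percentile was 53.8. The counts in gene lists were read against these shares. Of 27 lists, 23 had at least 5 promoters in pairs. Values in parentheses after a gene of a list are rank differences, and values written as one over another are the average signals of ANP32E over H2A.Z in TAC hearts. Beyond the highest pair and the lowest pair of members of each list, members were picked after their values were seen. List members did not need an ANP32E interval called in TAC hearts. Among ANP32E-low members named as the lowest of their list, none was called at Rb1cc1, Atg10, Ltbp1, Hey2, Ino80b, Chd1, Mcm2, Eif3k and Eif3j1. The same held for Rpl10, Rps27a, Mrps24, Cox7a2, S100a1 and Rcan1, and for Mcl1 and Ldha among ANP32E-high members. For members picked after their values were seen, the call is not given. Of the 88 pairs named here or among the extremes by position that were ANP32E-high or ANP32E-low, 45 kept that end with the peak signal. Of 14117 genes with an H2A.Z region at the promoter, 5721 (40.5%) had a pair.

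Immediate early genes, which are induced within minutes of a stimulus, had high ANP32E for their H2A.Z. Of 33 genes, 24 had a paired promoter, and 10 of these were ANP32E-high and none ANP32E-low. At like H2A.Z, 16 of 24 were in the highest 10% and none in the lowest. The median rank difference was 20.4 points, with 21 of 24 above 0, and median ANP32E was 10.6 over 31.6 for H2A.Z, against 8.33 over 31.7 for all promoter genes. Klf2 led the list, followed by Mcl1, an inhibitor of apoptosis (61.6, with 9.70 over 19.9), Nr4a1 (56.5), Egr1 (50.2), Dusp1, a phosphatase of MAP kinases (46.7), and Ier3 (45.2). Fos, with 9.54 over 31.2, stood at 19.2, Jun at 16.3, and Junb at 4.71. The lowest members were Egr3, with 8.35 over 46.1 (-31.1), and Myc, with 8.76 over 42.2 (-20.2). In sham hearts the list had a median of -0.09.

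The H2A.Z regions of the immediate early genes were long, with a median of 10118.5 bp against 4678 bp at all promoter pairs. By the peak signal the list median was 19.6. When ranks were taken within 5 classes of region length, it was 5.38, against -2.49 for all promoter genes.

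Matrix and TGF-beta genes had the highest list median, 31.9 points over 15 promoters in 14 regions, with 6 ANP32E-high and 1 ANP32E-low. At like H2A.Z, 9 of 15 were in the highest 10% and 1 was in the lowest. Ski and Smad7, both inhibitors of TGF-beta signalling, stood at 61.1 (12.7 over 24.6) and 54.3 (9.50 over 21.8), and Skil, a relative of Ski, at 47.5. Col4a1 and Col4a2 share a promoter, with 12.5 over 30.0 (39.7). Timp2, an inhibitor of matrix proteases, stood at 38.9, Tgfbr2, a receptor of the pathway, at 33.96 and the ligand Tgfb1 at 31.9. Timp3 was close to 0 (-1.72), and Ltbp1, which binds latent TGF-beta, was ANP32E-low with 5.62 over 39.1 (-63.9). The list median was 25.4 by the peak signal, 32.1 within length classes and -9.59 in sham hearts.

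Endothelial genes had a median of 20.8 points over 16 promoters, with 5 ANP32E-high and 1 ANP32E-low. It was 20.7 by the peak signal, 12.3 within length classes and 7.90 in sham hearts. Tal1 (49.1), Ets1 (43.2) and Gata2 (41.8), transcription factors of blood and vessel cells, Flt1, a receptor of VEGF (40.0), and Dll4, a Notch ligand (39.8), were ANP32E-high. Hey2, a Notch target that the heart muscle also uses, had 5.04 over 31.3 (-47.3), and the receptor gene Tie1 had 4.31 over 15.4 (-2.84). At like H2A.Z, 3 of 16 were in the highest 10% and 1 in the lowest, against 11.9% and 7.91% of all promoter genes. With ranks taken over all regions of each table, the endothelial median was -4.61 and that of all promoter genes -19.6.

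Cytosolic ribosomal protein genes had a median of 13.03 points over 60 promoters, with 9 ANP32E-high and 4 ANP32E-low, and 42 above 0. At like H2A.Z, 12 of 60 were in the highest 10% and 2 in the lowest. Rplp0, the stalk protein, had 10.4 over 22.5 (60.9) and Rpl13 10.5 over 25.8 (50.2), while Rpl10 had 4.32 over 29.7 (-47.5) and Rps27a 6.59 over 35.7 (-44.5). Ribosomal protein genes have many processed copies in the genome, and whether this affects the reads at these promoters was not tested. With ranks over all regions the list median was -7.78, against -19.6 for all promoter genes. Translation factors ranged more widely around 7.19 over 35 promoters, with Eif1 and Eif4h, a helper of the eIF4A helicase (49.6; 24.3 by the peak signal), at the top and Eif3k (-58.9) and Eif3j1 (-51.1), subunits of eIF3, at the bottom. Mitochondrial ribosomal protein genes had a median of 2.33 over 44 promoters, between Mrps24 (-50.8) and Mrps18a (41.7).

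Autophagy genes had the lowest list median, -24.2 points over 24 promoters, with 8 ANP32E-low and none ANP32E-high. At like H2A.Z, 6 of 24 were in the lowest 10% and 1 was in the highest, and their median percentile was 24.3. Rb1cc1, a subunit of the ULK1 kinase complex, had 5.69 over 40.6 (-65.8; -17.3 by the peak signal), and Atg10, an enzyme of ATG12 conjugation, 6.23 over 36.3 (-51.1). Ulk2 (-50.5), Atg16l1 (-44.6), Fyco1 (-39.3), Atg12 (-38.01), Pink1 (-37.4) and Atg3 (-34.1) were the other ANP32E-low members. Of the 24 promoters, 13 had an ANP32E interval called in TAC hearts. Map1lc3b, which encodes the LC3 protein of autophagosome membranes, had 11.3 over 31.3 (31.8), and the mitophagy receptor Bnip3l 10.1 over 29.9 (29.8). The list median was -6.20 by the peak signal, -22.9 within length classes and 2.46 in sham hearts.

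Replication-dependent histone genes had a median of -24.1 over 16 genes, but these share 9 regions, and with each region counted once the median was -7.55. The promoter shared by Hist1h3a and Hist1h4a was ANP32E-high, with 9.56 over 27.4 (34.6), and that of Hist1h2ag, Hist1h2bj and Hist1h4i stood at -31.5. By the peak signal the median was 4.73, and these genes have near-identical copies. Genes that place or remove H2A.Z had a median of -10.9 over 31 promoters, with 1 ANP32E-high and 5 ANP32E-low, but -0.54 by the peak signal and a percentile of 50.1 at like H2A.Z. Ino80b, of the INO80 complex, had 6.20 over 36.0 (-50.4), and Srcap, the ATPase that deposits H2A.Z, 7.23 over 42.9 (-48.8; 10.04 by the peak signal). Epc1, a scaffold of the TIP60 complex, had 9.34 over 24.6 (42.4; -15.6 by the peak signal).

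Anp32e itself was ANP32E-low, with 6.36 for ANP32E over 32.3 for H2A.Z (-36.3), and stood at -25.4 in sham hearts and -42.9 by the peak signal. Its ANP32E interval was called in the sham library but not in the TAC library. At like H2A.Z its percentile was 15.2, outside the lowest 10%. H2afv, which encodes one of the H2A.Z proteins, had 5.68 over 28.4 (-28.8). H2afz, the gene of the other, had an H2A.Z region of 32.9 at its promoter and no paired ANP32E region. Ppp2ca, the catalytic subunit of PP2A, had 6.96 over 28.1 (-11.2), against 36.8 points in sham hearts, where its ANP32E was 11.6. The ANP32E interval of Ppp2ca was likewise called in the sham library only. The PP2A subunit genes as a list had 10.4 over 14 promoters with 1 ANP32E-high, Ppp2r5e, which had 9.90 over 26.0 (44.1). The list median was -8.06 by the peak signal. With ranks over all regions it was -4.28, against -19.6 for all promoter genes, and at like H2A.Z the median percentile was 79.8.

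Chromatin modifier genes had a median of -11.8 over 44 promoters, with 3 ANP32E-high and 5 ANP32E-low, and -0.06 by the peak signal. Chd1, a remodeller bound to active genes, had 5.15 over 35.8 (-61.2). Kat6a, an acetyltransferase, had 8.77 over 20.7 (46.6; 17.7 by the peak signal), against -31.3 in sham hearts. Cell cycle genes had -10.2 over 16 promoters, with 2 ANP32E-low, Cdkn2c (-52.9; -9.62 by the peak signal) and Mcm2 (-42.6), and a median percentile of 55.1 at like H2A.Z. Ago2 and Dicer1, the core of microRNA silencing, had 14.0 over 35.2 (22.1) and 11.9 over 31.8 (31.8) in TAC hearts, against rank differences of -73.0 and -43.4 in sham hearts. At Ago2, Dicer1 and Kat6a the ANP32E interval was called in the TAC library only. Regions listed in this way tend to have lower ANP32E in sham hearts by selection. The 7 microRNA processing genes had a median of 6.31, and 3 of them were in the highest 10% at like H2A.Z.

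Sarcomere genes of heart muscle stood near the middle. Of 30 genes, 18 had an H2A.Z region at the promoter and 10 of these (55.6%) a pair, with a median of 3.52 points and 1 ANP32E-high, Tmod1, which caps thin filaments (34.9; -1.04 with ranks over all regions). A further 5 had an ANP32E region with no H2A.Z under it, among them Myh6 and Myh7, the cardiac myosin heavy chains. At the 10 paired sarcomere promoters the signals of both proteins were low, with medians of 6.40 for ANP32E and 17.7 for H2A.Z. Among them Myom1, a protein of the M-band, had 3.13 over 13.6. An ANP32E interval was called in TAC hearts at 4 of the 10, and Myom1 was not among these. With ranks among called pairs the sarcomere median was -10.4 over 4 promoters, against -2.68 for all promoter genes. With ranks over all regions it was -24.1, against -19.6. In sham hearts the sarcomere median was 37.8. Nppa and Nppb, the natriuretic peptide genes of the stressed heart, had no region of either protein at the promoter. Hypertrophy stress genes had a median of -3.47 over 13 promoters, with Rcan1, the calcineurin inhibitor, ANP32E-low (-34.7; 17.7 by the peak signal).

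Calcium and ion channel genes had 5.13 over 11 promoters, between S100a1 (-47.9) and Calm2, which encodes calmodulin (49.4; -1.45 by the peak signal). Cardiac transcription factors had -4.16 over 18, growth signalling genes -6.61 over 27, and fatty acid oxidation genes -7.28 over 19, with no fatty acid gene at either end. The fatty acid median was -13.8 by the peak signal and 5.94 in sham hearts, and the median percentile at like H2A.Z was 32.5. With ranks among pairs called in TAC in both tables, the fatty acid median was -33.4 over 7 promoters. Respiratory chain genes had -1.51 over 34, between Cox7a2 (-55.5; 7.501 by the peak signal) and Atp5d (45.9), spliceosome genes 0.53 over 38, and proteasome and chaperone genes -4.97 over 41. Glycolysis genes had 3.29 over 14 with 3 ANP32E-high, led by Ldha, lactate dehydrogenase A, with 10.97 over 27.1 (47.1; 2.54 by the peak signal).

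Few promoters in the lists of other tissues and of development were paired, and many of those genes had no H2A.Z region either. Against the 40.5% of all genes with an H2A.Z promoter region that had a pair, 1 of 48 such homeobox and developmental genes, 2 of 16 liver and epithelial genes and 0 of 13 neuronal genes had one. Of 86 homeobox and developmental genes, 47 had an H2A.Z promoter region without a paired ANP32E region, with a median H2A.Z of 17.0, and 1 had a pair. Of 32 neuronal genes, 13 had H2A.Z alone and none had a pair, and of 26 liver and epithelial genes 14 had H2A.Z alone and 2 a pair. Of 22 leukocyte genes, 3 had H2A.Z alone and 1 a pair. The defining markers were sparse: ANP32E regions, paired or not, lay at the promoters of 4 of 6 cardiomyocyte, 2 of 4 endothelial and 1 of 4 fibroblast markers. None lay at those of 3 leukocyte, 4 neuronal and 3 hepatocyte markers. H2A.Z regions lay at 2 cardiomyocyte, 4 endothelial and 2 fibroblast markers, and pairs at 1, 2 and 1. Of the leukocyte, neuronal and hepatocyte markers, 1 each had an H2A.Z region.

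**Figure D5:**
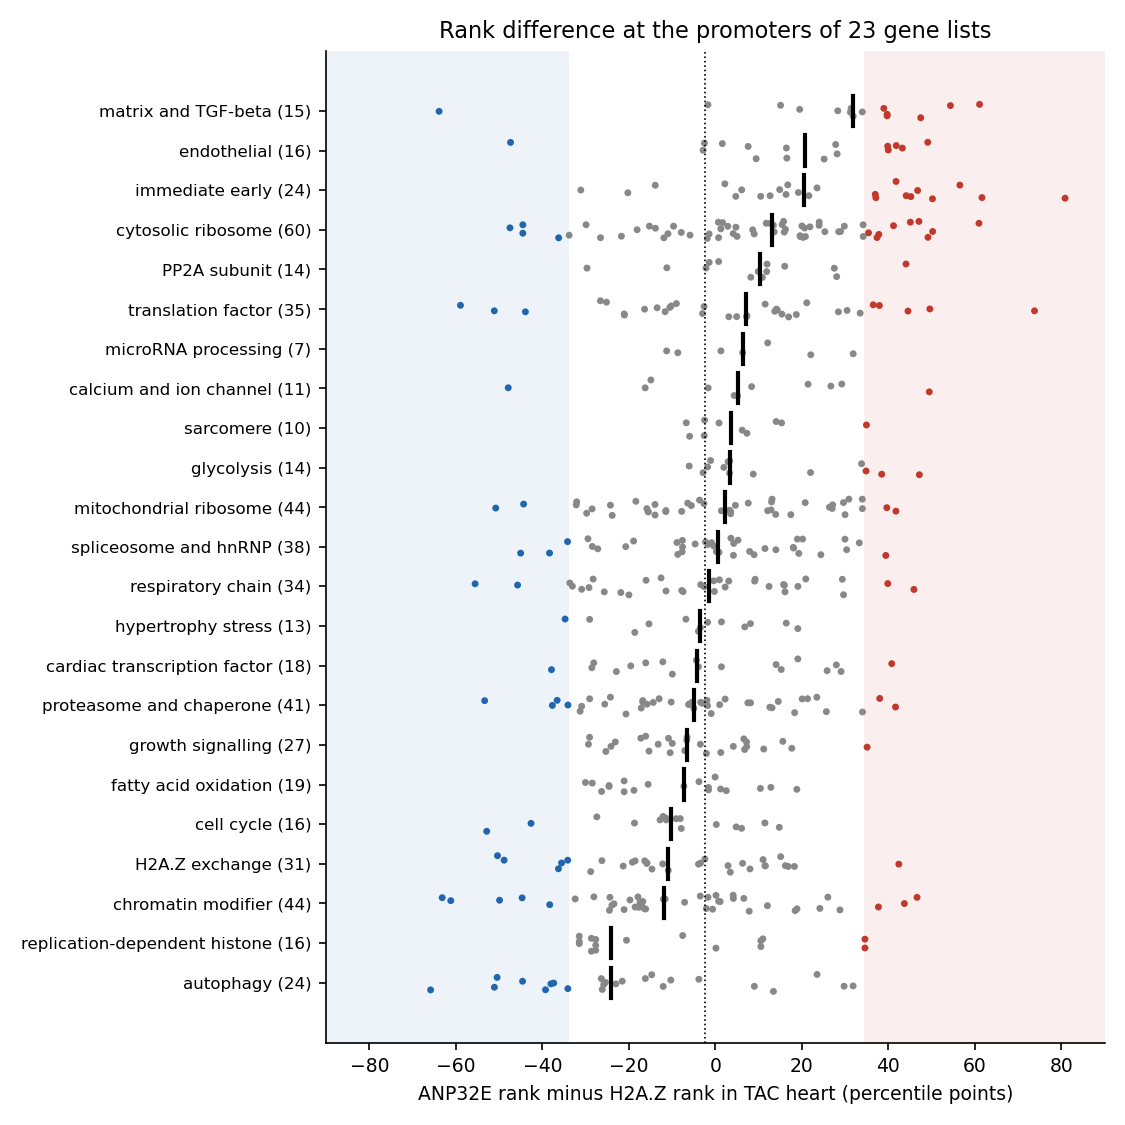
Rank difference, ANP32E minus H2A.Z, in TAC heart (x axis, percentile points) at each paired promoter (points) of 23 gene lists (y axis, number of promoters in parentheses). Black bars are list medians, between -24.2 for autophagy and 31.9 for matrix and TGF-beta genes; shading marks the ANP32E-high and ANP32E-low ranges and the dotted line the median of all promoter genes, -2.50.

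Promoter sequence differed little between the ends by rank difference in most features, and most in the SP/KLF box and the NRF1 core. Among promoter pairs with a named gene and an eligible entry, there was a RefSeq window at 326 of 406 ANP32E-high and 490 of 572 ANP32E-low cases. Median GC content was 63.5% and 61.3%, against 62.0% in all promoter pairs, and the Spearman coefficient of GC content with the rank difference was 0.0572. An SP/KLF box was present in 74.8% (69.8 to 79.5%) of ANP32E-high and 67.8% (63.4 to 71.9%) of ANP32E-low windows, in 71.0% of all promoter pairs and in 35.7% of all 32851 RefSeq windows. The NRF1 core was present in 8.59% (5.78 to 12.2%) and 13.1% (10.2 to 16.4%), against 11.3% and 7.93%. The intervals of the 2 ends overlapped for both motifs, which does not show that the shares are equal. The ETS, CRE, NF-Y, TATA, YY1, E-box, AP-1 and MEF2 shares of the ends differed by less than 3 percentage points.

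ANP32E-high pairs were more frequent over long H2A.Z regions. Among the 20% of pairs with the longest H2A.Z regions, 8294 to 37559 bp, 17.6% were ANP32E-high and 4.59% ANP32E-low, and among the 20% with the shortest, 1007 to 3395 bp, 4.78% were ANP32E-high and 12.9% ANP32E-low. By the peak signal the median rank difference was -0.38 in the longest and 1.71 in the shortest regions. By chromosome, the ANP32E-high share lay between 5.76% on chromosome 14 and 13.8% on chromosome 15, and the X chromosome, with 72 pairs, had the lowest median, -7.17.

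Most H2A.Z regions had no ANP32E region. Of all 31098 H2A.Z regions, 23.1% met an ANP32E region, but among the 3110 strongest in TAC hearts 62.7% did and 1161 did not, against 5.37% of the weakest 10%. H2A.Z regions with ANP32E had a median signal of 27.6, and those without of 13.9. They lay at promoters in 67.9% of cases with ANP32E and 29.3% without. The 604 ANP32E regions without H2A.Z were weak, with a median of 4.09, and 14.7% of them were called in the TAC library. The pairs next to the thresholds were Zfp90 with A930006D01Rik, just inside the high end at 34.4, Prex1 just outside it at 34.4, the pair of Ddhd2, Gm17484 and Bag4 just inside the low end at -33.9, and that of Pde4a, Gm16754 and Keap1 just outside it at -33.9.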

How the data were processed

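Whole-heart ChIP-seq of ANP32E and H2A.Z, 1 library per protein and condition, was taken from 2 deposited tables of merged regions. The authors deposited an average and a peak signal per region and library, per the file headers; no source used here gives their scaling, use of the input or depth, so the depth and its precision are unknown. BWA, SICER and mm10 are named in the submitters' processing notes. From these values, each ANP32E region was paired with the H2A.Z region of largest overlap (1 bp or more), the TAC average signals were ranked 0 to 100 over the pairs, and H2A.Z rank was subtracted from ANP32E rank. With 1 library per group no test was made; 95% exact binomial intervals cover counting error only. A promoter had a gene start within 1000 bp of the ANP32E region's edge. The pairs and gene lists were chosen with earlier results of these data known.

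Named genes were, among pairs called in TAC in both tables and without numbered or predicted loci, the 10 highest and 10 lowest promoters, 4 and 4 gene-body regions and 2 and 2 regions outside genes. The 4 strongest promoters of each protein, the 2 members at either end of each list, 8 fixed genes and the neighbours of each threshold were added. Alternatives were the peak signal, other pairings and overlaps, called pairs, ranks over all regions, percentiles within 20 groups of like H2A.Z, 5 length classes, autosomes, other thresholds and a promoter distance of 5000 bp. Short H2A.Z regions, GC classes and counting each region once were added after seeing the data. The scripts were tested on simulated data and ran in Python 3.11.15 with scipy 1.17.1, pandas 2.3.3, matplotlib 3.10.9 and numpy 2.4.6.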

Additional observations from a re-analysis of the deposited data

Results flagged for a closer look

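Among the 32 pairs named as the highest or lowest at promoters, in gene bodies or outside genes, 2 had a rank difference above 0 in TAC hearts and below 0 in sham hearts. Over all 138 named pairs, those of the gene lists included, 38 had opposite signs in TAC and sham hearts, among them 20 of the 88 that were ANP32E-high or ANP32E-low. The Mfng promoter stood at 70.0 points in TAC hearts and -23.2 in sham hearts. The chromosome 2 pair with no listed gene stood at 67.4 in TAC hearts and -4.0 in sham hearts. At both pairs the ANP32E interval was called in the TAC library and not in the sham library. Both were also chosen as extremes among pairs called in TAC hearts, and this choice favours lower ANP32E in sham hearts. With 1 library per protein and condition, neither difference was tested.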

How the results depend on the processing

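Each result rests on 1 library per protein, the depth of the signals is unknown, and the rank difference and the percentile at like H2A.Z order positions in opposite ways. No paired analysis was possible because each protein and condition had 1 library. The Spearman coefficient was 0.615 with the peak signal, 0.612 in one-to-one pairs, 0.350 in pairs called in TAC in both tables, 0.472 within length classes and 0.656 over H2A.Z regions up to the median length, a setting chosen after seeing the data; percentiles within groups of like H2A.Z give no such coefficient. Promoter shares of ANP32E-high and ANP32E-low pairs were 61.1% and 75.7% with the peak signal, 70.7% and 86.8% in called pairs, 70.8% and 52.0% at like H2A.Z, 61.8% and 77.0% within length classes, 60.7% and 90.3% with promoters within 5000 bp, and 61.7% and 91.8% over short H2A.Z regions. CpG island shares were 61.2% and 71.9% with the peak signal, 73.2% and 89.8% in called pairs, 72.8% and 42.8% at like H2A.Z, and 60.2% and 86.5% over short H2A.Z regions. One-to-one pairs moved the ANP32E-low shares to 87.4% (promoters) and 82.9% (CpG islands), and ranks over all regions moved them to 68.9% and 59.1%. The ANP32E-high promoter share was 60.0% with 20% at each end, and the ANP32E-high CpG share was 52.1% with 50 points or more.

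Of 299 list medians recomputed, 34 lay on the other side of 0, and 7 of these belonged to lists whose median stood at least 10 points from 0. With the peak signal the 7 were replication-dependent histones (4.73) and PP2A subunits (-8.06). With ranks over all regions, where the median of promoter genes was -19.6, they were PP2A subunits (-4.28), cytosolic ribosome (-7.78) and endothelial genes (-4.61). At like H2A.Z, as percentile minus 50, they were H2A.Z exchange (0.128) and cell cycle (5.05). Of 1334 values of named pairs, 54 lay on the other side of 0, and 15 of these belonged to ANP32E-high or ANP32E-low pairs. With the peak signal the 15 were Kdm4c (14.9), Epc1 (-15.6), Srcap (10.04), Calm2 (-1.45), Nfe2l1 (-0.153), Smarcc2 (-2.03), Aldoa (-2.53), Rcan1 (17.7), Mrpl23 (-7.30), Cox7a2 (7.501), Srsf4 (21.4), Prpf4 (10.8) and the pair of A930006D01Rik and Zfp90 (-4.55). With ranks over all regions they were Rictor (-0.898) and Tmod1 (-1.04). The cause was not tested.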
